A study of Mus musculus with 39 samples.

Results

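Expression of the angiopoietin-TIE axis was followed through 6 genes, namely Angpt1, Angpt2, Tek, Tie1, Ptprb and Foxo1, in endothelial cells taken from the brains of mouse pups that had lost Smad4, Alk1 or Eng in the endothelium. The 6 genes were selected by symbol from 24946 genes. All 6 were present in each of the 5 deposited tables, and all 6 passed the filter on low values in every comparison.

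Angiopoietins are secreted ligands of TIE2, the receptor tyrosine kinase encoded by Tek. Angiopoietin-1, made mainly by cells around the vessel, activates TIE2 and keeps endothelium quiescent, whereas angiopoietin-2, made by the endothelium itself, competes with it and often acts as an antagonist. TIE1 is a related receptor without an angiopoietin ligand of its own that modulates TIE2, VE-PTP (encoded by Ptprb) removes phosphate from TIE2, and active TIE2 signals through AKT to keep the transcription factor FOXO1, an activator of Angpt2, out of the nucleus.

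All pups were of the C57BL/6 strain, and mutants carried the Cdh5-CreERT2 transgene, a tamoxifen-inducible recombinase driven by the promoter of the endothelial cadherin gene Cdh5. The mutant genotypes were Smad4f/f; Cdh5-CreERT2, Alk1f/f; Cdh5-CreERT2 and Engf/f; Cdh5-CreERT2, and the wild types were Smad4f/f, Alk1f/f and Engf/f pups without Cre. Each of these 3 untreated cohorts held 5 mutants and 5 wild types. Tamoxifen was dosed at 300 µg on days 1, 2 and 3 after birth in the Smad4 and Eng models and at 100 µg on day 4 in the Alk1 model, and the labels do not set the wild types apart in this. A further Smad4 experiment compared 3 wild types and 3 mutants given control IgG with 3 mutants that received LC10, which inhibits angiopoietin-2, at 30 µg on days 2 and 4. Cells were collected on day 7, or on day 6 in the Alk1 model, by capture on beads carrying an antibody to PECAM. Smad4 encodes a signal transducer of the BMP pathway, Alk1 (gene symbol Acvrl1) one of its receptors and Eng a co-receptor, and loss of each is used as a mouse model of hereditary haemorrhagic telangiectasia.

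The 39 libraries had value sums of 25.44M to 42.74M, between 16105 and 17683 genes above 0 and a roughly inferred depth of 11.09M to 30.85M fragments. Values are normalized expression values, with the mean ± SD for groups, and log2 fold changes (mutant over wild type) carry their SE. Untreated groups hold n = 5 and the antibody groups n = 3 libraries. A gene was called at an adjusted p under 0.05. The labels do not say that replicates came from separate litters or experiments, so p-values measure only the spread between these samples. The deleted gene was lower in the Smad4 mutants (1820 ± 113 against 5704 ± 264), in the IgG-treated Smad4 mutants (2315 ± 635 against 5848 ± 194) and in the Eng mutants (10152 ± 1234 against 63420 ± 4121). Acvrl1 was not called in the Alk1 mutants (14152 ± 1480 against 15319 ± 1011, adjusted p = 0.279), and a whole-gene value of this kind gives no check of the Alk1 labels. All 10 endothelial markers, Pecam1 and Cdh5 among them, had a group mean of at least 20 in every group. All 12 pericyte, 8 astrocyte and 8 microglial markers, read below, did so too, so this is no measure of purity. In the Smad4 wild types the mean summed value was 353760 for the endothelial and 71198 for the pericyte markers. Column names gave some libraries a code, L146 for 2 mutants and 2 wild types of the Smad4 cohort and L219 for 2 and 2 of the Alk1 cohort, while the Eng libraries carried L210 (4 and 4) or L216 (1 and 1). The 2 Smad4 mutants coded L146 stood apart from the other 3 in Angpt2, and results that rest on them are given with and without them.

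In the wild types, values divided by exon length in kilobases placed the 2 receptors and the phosphatase far above the ligands. In the Smad4 wild types Tie1 stood at 8227 ± 768 per kilobase, Tek at 7026 ± 360 and Ptprb at 5790 ± 290. Foxo1 stood at 606 ± 28.8, Angpt2 at 499 ± 83.4 and Angpt1 at 52.3 ± 4.66 on the same scale. The order was the same in the wild types of the Alk1, Eng and IgG tables. Neighbours overlapped at 2 places in the Smad4 wild types, Tie1 with Tek (7446 to 9283 against 6475 to 7465) and Foxo1 with Angpt2 (583 to 656 against 380 to 597), whereas Ptprb lay wholly below Tek and Angpt1 wholly below Angpt2.

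Across the 4 comparisons of mutants with wild types, the ligand gene Angpt2 was higher and the receptor gene Tek lower in every one, Angpt1 was lower in 3, and Foxo1 was called in none. Of all 13469 genes tested in the 4 comparisons, 3.65% were called higher in each and 1.89% lower in each. In the Smad4 cohort 1 of the 6 genes was called higher and 2 lower, where 17.2% and 15.8% of 14012 genes were called in these directions. In the Alk1 cohort 1 was called higher and 2 lower, beside 17.5% and 15.7% of 13635 genes. In the Eng cohort 1 was called higher and 3 lower, beside 12.4% and 9.08% of 14350 genes. Under IgG 2 were called higher and 2 lower, beside 13.2% and 10.8% of 14052 genes. Either way, 33%, 33.2%, 21.5% and 24% of all genes were called in the 4 comparisons. Mutants and wild types did not overlap in 3 of the 6 genes in each untreated cohort (22.8%, 24.5% and 16.5% of all genes in the Smad4, Alk1 and Eng cohorts) and in 5 of the 6 under IgG (40.9% of all genes). The median log2 fold change of the 6 genes was -0.10 for Smad4, -0.25 for Alk1, -0.18 for Eng and -0.16 under IgG, against -0.01, -0.01, -0.01 and 0.0024 over all genes. The calls were split 52.1% higher in the Smad4 and 52.7% in the Alk1 cohort, and with each library divided by its total these shares became 37.2% and 41.1%.

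**Figure D1:**
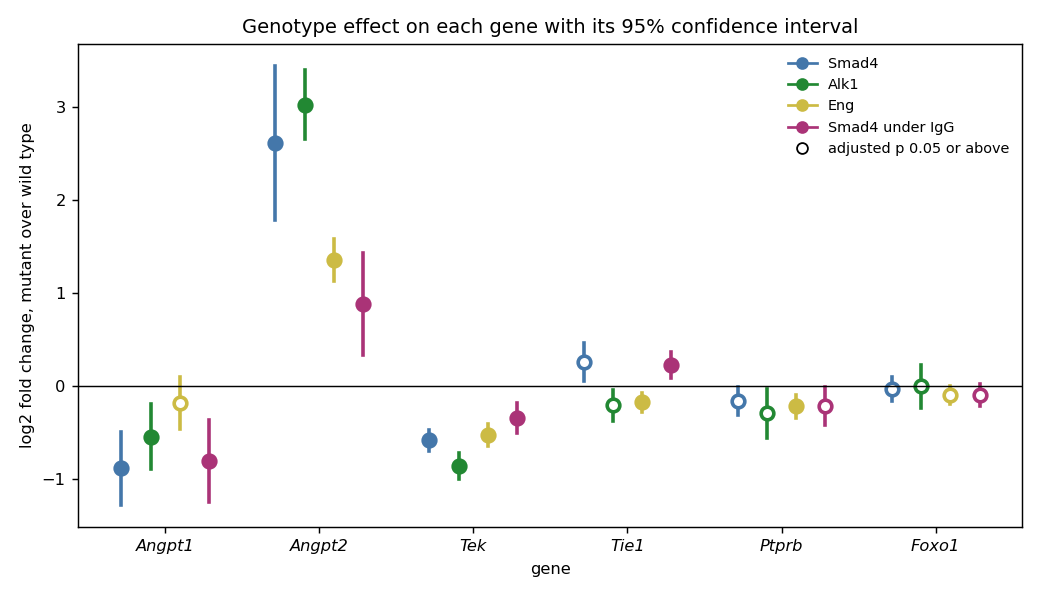
Log2 fold change of mutant over wild type (vertical axis) for the 6 genes (horizontal axis) in the 4 comparisons, as points with 95% confidence intervals, filled where the adjusted p was under 0.05. Angpt2 lies above 0 and Tek below 0 in all 4 comparisons, from 0.88 to 3.03 and from -0.86 to -0.34, while every Foxo1 point is open.

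Angpt2 (mm10 chromosome 8, 18690263 to 18741562, minus strand) rose 6.11-fold in the Smad4, 8.15-fold in the Alk1, 2.56-fold in the Eng and 1.84-fold in the IgG-treated Smad4 mutants. In the Smad4 cohort the wild types held 1400, 1738, 2202, 2048 and 1815 and the mutants 7271, 6703, 6524, 22452 and 23827. The last 2 mutants, those coded L146, were over 3 times as high as the other mutants, and every mutant was above every wild type. On the log2 scale they were 2.61 ± 0.38 above the wild types (adjusted p = 0.000491), rank 35 from the top of 14012 genes. Uncoded libraries alone (3 of each genotype) gave a log2 fold change of 1.96, and those coded L146 (2 of each) gave 3.58. That difference between coded and uncoded libraries was 1.62 ± 0.21 on the log2 scale (adjusted p = 0.0198), a test added after the values had been seen, in which 0.307% of all genes were called. The wild types gave no such split, with means of 1780 without and 1932 with the code.

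After loss of Alk1, Angpt2 stood at 8443, 13920, 15386, 14676 and 11859 in the mutants, against 1124, 1445, 1676, 1831 and 1751 in the wild types. All 5 mutants were far above the wild types, with mutant 1 the lowest of them. The log2 fold change was 3.03 ± 0.17 (adjusted p = 4.92e-07), rank 22 from the top, and it was 3.12 without and 2.88 with the code L219. In the Eng cohort the wild types held 1913, 1845, 1914, 1677 and 1997 and the mutants 4497, 4321, 6549, 4254 and 4650. Mutant 3 was above the other 4, and the groups did not overlap. Mutants were 1.36 ± 0.10 higher on the log2 scale (adjusted p = 4.83e-06), rank 80 from the top. Under IgG the wild types held 1621, 1719 and 1809 and the mutants 2627, 2614 and 4609. All 3 mutants were above the wild types, with mutant 3 the highest. The log2 fold change was 0.88 ± 0.24 (adjusted p = 0.0282), and the call was lost without wild type 1, 2 or 3 or without mutant 3 (0.84, 0.88, 0.92 and 0.61, at adjusted p of 0.0723, 0.0705, 0.0537 and 0.0691).

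Angpt2 lies on the opposite strand within Mcph1, with which it shares no exon bases, and the labels do not say whether counting used the strand. Mcph1, a gene of chromosome condensation, was called higher in the Alk1 mutants (573 ± 92.6 against 387 ± 22.0, log2 fold change 0.55 ± 0.11, adjusted p = 0.00241). It was not called in the Smad4, Eng and IgG comparisons, where its log2 fold changes were 0.04, 0.20 and 0.16.

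**Figure D2:**
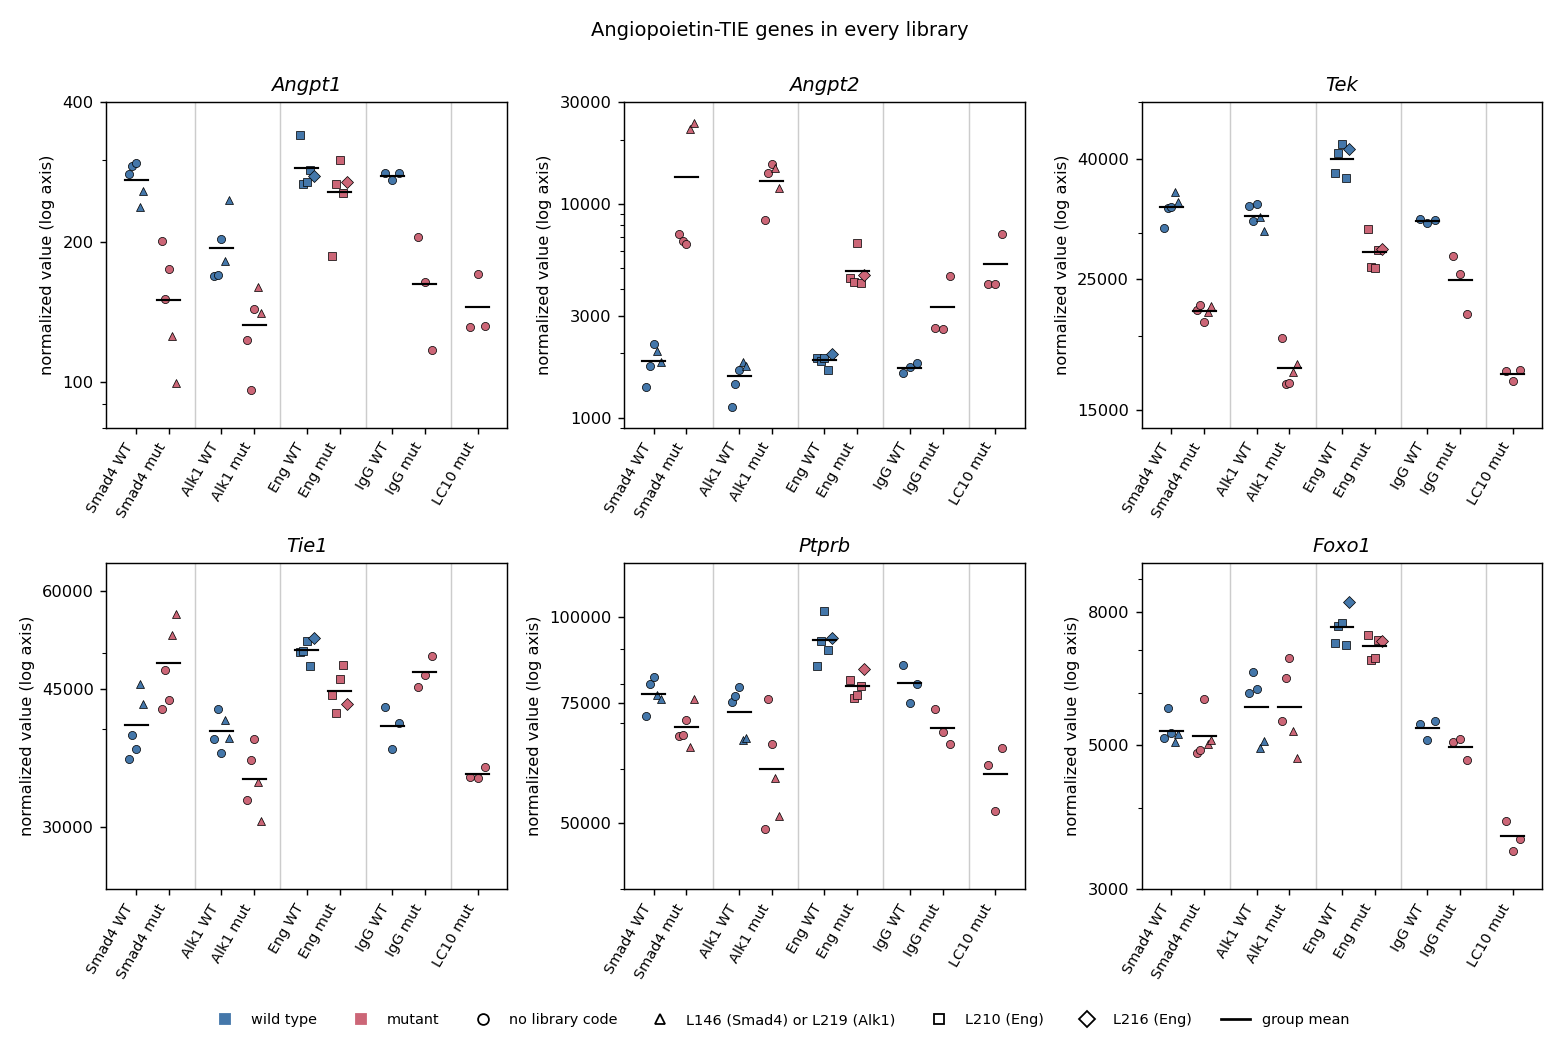
Normalized expression value (vertical log axes) of each of the 6 genes in all 39 libraries, with 1 point per library, a black bar for the group mean, colour for genotype and marker shape for the library code. LC10 points are as deposited in a table that was normalized separately, and the 2 Smad4 mutants coded L146 stand at 22452 and 23827 for Angpt2 where the other 3 lie between 6524 and 7271.

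Angpt1 (chromosome 15, 42424723 to 42676977, minus strand), the agonist ligand, was lower in the Smad4, Alk1 and IgG-treated Smad4 mutants. In the Smad4 cohort the wild types held 280, 291, 295, 238 and 257 and the mutants 201, 151, 176, 126 and 99.5. All mutants were below all wild types, and the 2 coded L146 were the lowest. The difference was -0.88 ± 0.18 on the log2 scale (adjusted p = 0.00388), with -0.72 without and -1.13 with the code. For Alk1 the wild types held 169, 170, 203, 183 and 246 and the mutants 123, 96.2, 144, 160 and 141. The groups did not overlap, but the highest mutant and the lowest wild type were close. Their difference was -0.54 ± 0.16 (adjusted p = 0.0214), and without wild type 5 it was -0.46 (adjusted p = 0.0554). Under IgG the wild types held 281, 271 and 281 and the mutants 205, 164 and 118. The 3 mutants were all lower (-0.80 ± 0.20, adjusted p = 0.0174). For Eng the wild types held 339, 267, 270, 286 and 278 and the mutants 187, 267, 300, 255 and 269. These groups overlapped and Angpt1 was not called (-0.18 ± 0.13, adjusted p = 0.364, 95% confidence interval -0.46 to 0.10). An antisense gene outside the tables covers 737 bases, 14.2%, of the exons of Angpt1, and its share in these values was not tested.

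Markers of pericytes, the cells that wrap capillaries, were read in the same comparisons. Of all genes, 15.8% were called lower in the Smad4, 15.7% in the Alk1, 9.08% in the Eng and 10.8% in the IgG comparison. Of 12 pericyte markers, 7 were called lower in the Smad4 (median log2 fold change -0.91), 3 in the Alk1 (-0.20), 0 in the Eng (0.01) and 8 in the IgG comparison (-0.74), and none was called higher or stood at 0 in a whole group. Their summed value ran from 59715 to 84826 in Smad4 wild types and from 17210 to 53404 in mutants, and from 80374 to 111410 and 40202 to 77382 under IgG. In the Alk1 cohort it ran from 93284 to 118070 in wild types and from 63657 to 121180 in mutants, and in the Eng cohort from 79873 to 130770 and from 75493 to 135370. Fewer cells of a type and less RNA per cell cannot be told apart in these bulk libraries. With the pericyte level as a term in the fit, Angpt1 was no longer called in the Smad4 (-0.50, adjusted p = 0.123), Alk1 (-0.37, adjusted p = 0.168) or IgG comparison (-0.41, adjusted p = 0.374). Over all genes 1612, 2939 and 387 were then called in these 3 comparisons, against 4620, 4530 and 3371 without the term. Pericyte sums of mutants and wild types did not overlap in the Smad4 and IgG comparisons, so the fit can hardly separate pericyte level from genotype there. In the same fit Angpt2 was still called in the Smad4 (1.70, adjusted p = 0.0110) but not in the IgG comparison (0.18, adjusted p = 0.661), and Tek was not called under IgG (-0.20, adjusted p = 0.240). The cause of the changes in Angpt1, Angpt2 and Tek was not tested.

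Within the Smad4 and IgG mutants the pericyte sum and Angpt2 ran in opposite order in part. The Smad4 mutants 1 to 5 had pericyte sums of 49171, 53404, 40565, 36725 and 17210, so the 2 libraries highest in Angpt2 were the 2 lowest here. Those 2, both coded L146, were also the lowest Smad4 mutants in the sum of every other non-endothelial list. Microglial sums were 8054 and 5481 against 18390 to 20213, and oligodendrocyte sums 2588 and 1644 against 5032 to 7981. They were the highest in the endothelial sum (398670 and 406590 against 315090 to 343310), so their low sums were not particular to pericytes. The IgG mutants 1, 2 and 3 had sums of 77382, 52279 and 40202, and remaining Smad4 values of 3030, 2099 and 1817. Mutant 3, the highest of them in Angpt2, was the lowest in both. The order did not hold throughout the Alk1 and Eng mutants. Alk1 mutant 3, highest in Angpt2 (15386), had a sum of 71802, but mutant 4, next in Angpt2 (14676), had the highest sum (121180). Eng mutant 4 was the lowest of its group in both (75493 and 4254), and Eng mutant 5 had the highest sum (135370) with an Angpt2 of 4650. The relation was not tested over so few libraries.

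Other cell types were tracked with lists of the same kind. In the order Smad4, Alk1, Eng and IgG, 15.8%, 15.7%, 9.08% and 10.8% of all genes were called lower. Called higher were 17.2%, 17.5%, 12.4% and 13.2%. Several counts on these short lists lie near those shares. Smooth muscle markers were called lower for 5 of 6 in the Smad4, 5 of 6 in the Alk1, 0 of 6 in the Eng and 3 of 6 in the IgG comparison. Neuronal markers were called lower for 6 of 8, 2 of 8, 0 of 9 and 2 of 9, with 1 of 9 higher under IgG, oligodendrocyte markers for 4 of 7, 0 of 6, 0 of 7 and 1 of 7, and astrocyte markers for 2, 0, 0 and 2 of 8. Microglial markers were called lower for 7 of 8 under IgG, where their summed value was 17610 to 34802 in wild types and 10658 to 16967 in mutants, and for 0 of 8 elsewhere, with 1 of 8 higher in the Alk1 cohort. Erythroid markers were called lower for 3 of 4, 4 of 4, 3 of 5 and 1 of 4, fibroblast markers for 2, 1, 0 and 2 of 5, and platelet and megakaryocyte markers for 0, 0, 0 and 1 of 4. Hbb-bs was at 0 in all libraries of the Smad4, Alk1, IgG and LC10 mutants and of the IgG wild types, and Gp9 in all LC10 mutants. Of the endothelial list itself, 2, 3, 0 and 1 of 10 were called higher and 2, 1, 4 and 3 lower. With the level of glial and neuronal markers in the fit, Angpt1 was not called in the Smad4 (-0.48, adjusted p = 0.0586) or IgG comparison (-0.71, adjusted p = 0.0975), and Angpt2 was called in the Smad4 (1.60, adjusted p = 0.000575) but not in the IgG comparison (0.95, adjusted p = 0.0856). In that fit 2295 genes were called in the Smad4 and 2005 in the IgG comparison, against 4620 and 3371 without the term. The part of the remaining lists in these results was not tested.

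Tek (chromosome 4, 94739289 to 94874976, plus strand), which encodes TIE2, fell in all 4 comparisons, to 0.668 of the wild-type level in the Smad4, 0.552 in the Alk1, 0.695 in the Eng and 0.789 in the IgG-treated Smad4 mutants. In the Smad4 cohort the wild types held 30508, 32980, 33095, 35176 and 33773 and the mutants 22152, 22565, 21158, 21989 and 22540. The mutants were tightly grouped below the wild types, and the 2 coded L146 lay among the rest. The log2 fold change was -0.58 ± 0.05 (adjusted p = 1.46e-05), with -0.55 without and -0.63 with the code. Among Alk1 libraries the wild types held 33266, 31338, 33565, 31918 and 30148 and the mutants 19850, 16613, 16684, 17371 and 17971. All 5 mutants were far below all wild types (-0.86 ± 0.07, adjusted p = 2.60e-06). Among Eng libraries the wild types held 37913, 40866, 42441, 37163 and 41507 and the mutants 30428, 26251, 26080, 27990 and 28140. The groups did not overlap (-0.53 ± 0.05, adjusted p = 4.27e-05). Under IgG the wild types held 31661, 31103 and 31561 and the mutants 27362, 25521 and 21840. All 3 mutants were lower (-0.34 ± 0.07, adjusted p = 0.0108), mutant 3 the lowest. Tek ranked 2097 from the bottom of the genes tested in the Smad4, 499 in the Alk1, 299 in the Eng and 2748 in the IgG comparison, so many genes fell further.

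Tie1 (chromosome 4, 118471191 to 118490061, minus strand), the companion receptor, was called higher in 1 comparison, lower in 1 and in neither direction in 2. In the Smad4 cohort the wild types held 36612, 39321, 37704, 45646 and 42984 and the mutants 42427, 47601, 43533, 52626 and 56085. The groups overlapped, the 2 wild types and the 2 mutants coded L146 being the highest of their genotype. The log2 fold change was 0.26 ± 0.09 (adjusted p = 0.0557), and with the code as a term it was 0.26 (adjusted p = 0.00265). It was also called without wild type 4, mutant 1 or mutant 3 (0.30, 0.30 and 0.29, with adjusted p of 0.0401, 0.0342 and 0.0344), and it was 0.09 (adjusted p = 0.655) with the pericyte level in the fit. Under IgG the wild types held 42654, 37694 and 40705 and the mutants 45201, 46848 and 49526. All 3 mutants were above the wild types and Tie1 was called higher (0.23 ± 0.06, adjusted p = 0.0258). That call was lost without wild type 2 or 3 or mutant 2 or 3 (adjusted p = 0.0925, 0.0560, 0.0741 and 0.0726). It was also lost with the pericyte level in the fit (0.19, adjusted p = 0.248) and without the LC10 libraries (adjusted p = 0.0639).

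Among Alk1 libraries Tie1 stood at 38858, 42360, 37285, 41024 and 38970 in the wild types and at 32479, 36484, 38871, 34228 and 30557 in the mutants. Only mutant 3 reached into the wild-type range. Its log2 fold change was -0.21 ± 0.08 (adjusted p = 0.0570), and it was called without mutant 3 (-0.25, adjusted p = 0.0191), with the code as a term (adjusted p = 0.0459) and with each library divided by its total (-0.28, adjusted p = 0.00354). For Eng the wild types held 50062, 50293, 51708, 48058 and 52223 and the mutants 44183, 41884, 46259, 48250 and 43068. Mutant 4 just exceeded the lowest wild type, and Tie1 was called lower (-0.18 ± 0.05, adjusted p = 0.0173). After quantile normalization it was -0.058 (adjusted p = 0.433), and among the L210 libraries alone -0.15 (adjusted p = 0.0605).

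The promoters of the 2 receptor genes were matched in RefSeq (build GRCm38.p6, 250 bases before to 50 after the start). They are shown because Tek was called lower and Tie1 higher in the IgG-treated Smad4 mutants. That Tie1 call was lost in 8 of 17 alternatives. Tie1 was called lower in the Eng cohort and was not called in the untreated Smad4 and Alk1 cohorts. Whether the promoters bear on these changes was not tested. Promoters were found for Tek, Tie1 and Foxo1, 3 of the 6 genes. Capitals mark the core of the binding motif of ETS factors, GGAA or on the other strand TTCC. They read 5′ to 3′ on the strand of the gene, with Tek at chr4:94739039-94739338 on the plus strand and Tie1 at chr4:118489800-118490099 on the minus strand. The gene coordinates given above put the start of Tie1 at 118490061, near the upstream end of this window. By those coordinates most of the Tie1 window lies within the gene.
Tek promoter: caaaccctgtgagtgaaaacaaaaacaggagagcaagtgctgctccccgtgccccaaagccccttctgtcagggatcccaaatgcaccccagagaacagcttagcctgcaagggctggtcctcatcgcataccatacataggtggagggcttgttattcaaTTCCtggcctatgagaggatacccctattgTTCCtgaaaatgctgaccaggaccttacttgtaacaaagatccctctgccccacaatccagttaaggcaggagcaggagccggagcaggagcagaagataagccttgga
Tie1 promoter: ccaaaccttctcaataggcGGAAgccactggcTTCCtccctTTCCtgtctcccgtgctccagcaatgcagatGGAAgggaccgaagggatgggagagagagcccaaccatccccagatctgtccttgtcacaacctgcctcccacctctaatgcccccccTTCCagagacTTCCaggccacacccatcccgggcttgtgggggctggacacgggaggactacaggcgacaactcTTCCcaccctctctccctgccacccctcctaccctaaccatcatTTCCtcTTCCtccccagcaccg

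The Tie1 promoter held 9 ETS cores, a number reached by 1.59% of 32851 mouse promoters, and the Tek promoter held 2, reached by 84.6%. At least 1 core was present in 96% of promoters. Further motifs were searched on both strands. The GATA motif AGATAA occurred 1 time in the Tek promoter and not in that of Tie1, with 11.2% of promoters holding it, and that match did not overlap an ETS core. The FOXO motif GTAAACA was in none of the windows of Tek, Tie1 and Foxo1, and 3.65% of promoters held it. The SMAD motif GTCTAGAC was not in them either (0.213% of promoters). The same held for the shorter SMAD motif CAGACA (21%). It held for the GC-rich motif GGCGCC of BMP SMADs as well (11.9%). A match is a match of letters and says nothing of binding.

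Ptprb (chromosome 10, 116275523 to 116389535, plus strand), the phosphatase that acts on TIE2, had lower mutant means in all 4 comparisons and was called in 1. In the Eng cohort the wild types held 84947, 92475, 102240, 89642 and 93269 and the mutants 80857, 76126, 76900, 79222 and 83922. All mutants were below all wild types (-0.22 ± 0.05, adjusted p = 0.0140), and after quantile normalization the value was -0.064 (adjusted p = 0.354). Its values ran from 71623 to 81673 in Smad4 wild types and 64674 to 75989 in mutants (-0.16 ± 0.07, adjusted p = 0.0916), a difference that was called with each library divided by its total (-0.24, adjusted p = 0.0157). In the Alk1 cohort they ran from 66084 to 79204 and from 48957 to 76053 (-0.29 ± 0.12, adjusted p = 0.0763). Mutant 2 alone lay within the wild-type range there, and without it the value was -0.38 (adjusted p = 0.0153). The Alk1 difference was also called with each library divided by its total (-0.37, adjusted p = 0.0113), after quantile normalization (-0.32, adjusted p = 0.0256), with the pericyte level in the fit (-0.42, adjusted p = 0.0396) and with the code as a term (adjusted p = 0.0462). Under IgG the mutants held 73504, 67966 and 65253 and the wild types 85230, 75049 and 79886. They did not overlap but the difference was not called (-0.22 ± 0.09, adjusted p = 0.106).

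Foxo1 (chromosome 3, 52268336 to 52353221, plus strand), the transcription factor held in check by TIE2 signalling, was not called in any comparison. Its log2 fold changes were -0.03 ± 0.06 in the Smad4, -0.003 ± 0.108 in the Alk1, -0.10 ± 0.05 in the Eng and -0.10 ± 0.05 in the IgG comparison, with adjusted p of 0.720, 0.986, 0.163 and 0.207. The 95% confidence intervals were -0.16 to 0.10, -0.24 to 0.23, -0.19 to 0.00 and -0.21 to 0.02. Values ran from 5055 to 5684 in Smad4 wild types and from 4849 to 5879 in their mutants, and from 4941 to 6459 and 4765 to 6796 in the Alk1 cohort. They ran from 7111 to 8292 and 6759 to 7374 in the Eng cohort and from 5086 to 5438 and 4735 to 5099 under IgG. Mutants and wild types overlapped in all 4. In the Alk1 cohort the 2 wild types and the 2 mutants coded L219 lay below the uncoded libraries of their genotype. An antisense gene outside the tables covers 674 bases, 7.78%, of the Foxo1 exons.

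Ratios of 2 genes within a library do not depend on how the library was scaled, and 6 such ratios were computed. In 4 of them, Angpt2 to Tek, to Angpt1 and to Foxo1 and Tie1 to Tek, mutants and wild types did not overlap in any of the 4 comparisons. For Angpt2 to Tek this follows from the single genes, which moved in opposite directions without overlap in every comparison. The other 3 ratios each hold Angpt2 or Tek and are no separate finding. No share over other gene pairs was computed. The ratio of Angpt2 to Tek, antagonist ligand to receptor, lay between 0.034 and 0.067 in all 18 wild types. It was 0.297 to 1.06 in the Smad4, 0.425 to 0.922 in the Alk1, 0.148 to 0.251 in the Eng and 0.096 to 0.211 in the IgG-treated Smad4 mutants. The ratio of Angpt2 to Angpt1 was 5.01 to 10.03 in wild types, and it was 36.2 to 239, 68.4 to 145, 16.2 to 24.0 and 12.8 to 39.2 in the same 4 groups of mutants. These 2 ratios reached their highest values in the Smad4 mutants coded L146. The ratio of Tie1 to Tek was 1.11 to 1.35 in wild types and 1.92 to 2.49, 1.64 to 2.33, 1.45 to 1.77 and 1.65 to 2.27 in mutants. It was above the wild types also in the Alk1 and Eng mutants, in which Tie1 itself was not higher. The ratio of Ptprb to Tek was 2.07 to 2.69 in wild types and 2.94 to 3.37, 2.47 to 4.58, 2.66 to 2.98 and 2.66 to 2.99 in mutants, and this ratio overlapped between genotypes under IgG. The ratio of Angpt2 to Foxo1 was 0.187 to 0.423 in wild types and 1.11 to 4.68, 1.55 to 2.798, 0.588 to 0.964 and 0.513 to 0.973 in mutants. The ratio of Angpt1 to Tek overlapped between genotypes in all 3 untreated cohorts, with 0.676% to 0.916% in wild types and 0.442% to 0.906% in mutants for Smad4, 0.508% to 0.817% and 0.579% to 0.922% for Alk1, and 0.636% to 0.895% and 0.615% to 1.15% for Eng. Only under IgG was it lower in all mutants (0.539% to 0.751% against 0.872% to 0.892%).

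**Figure D3:**
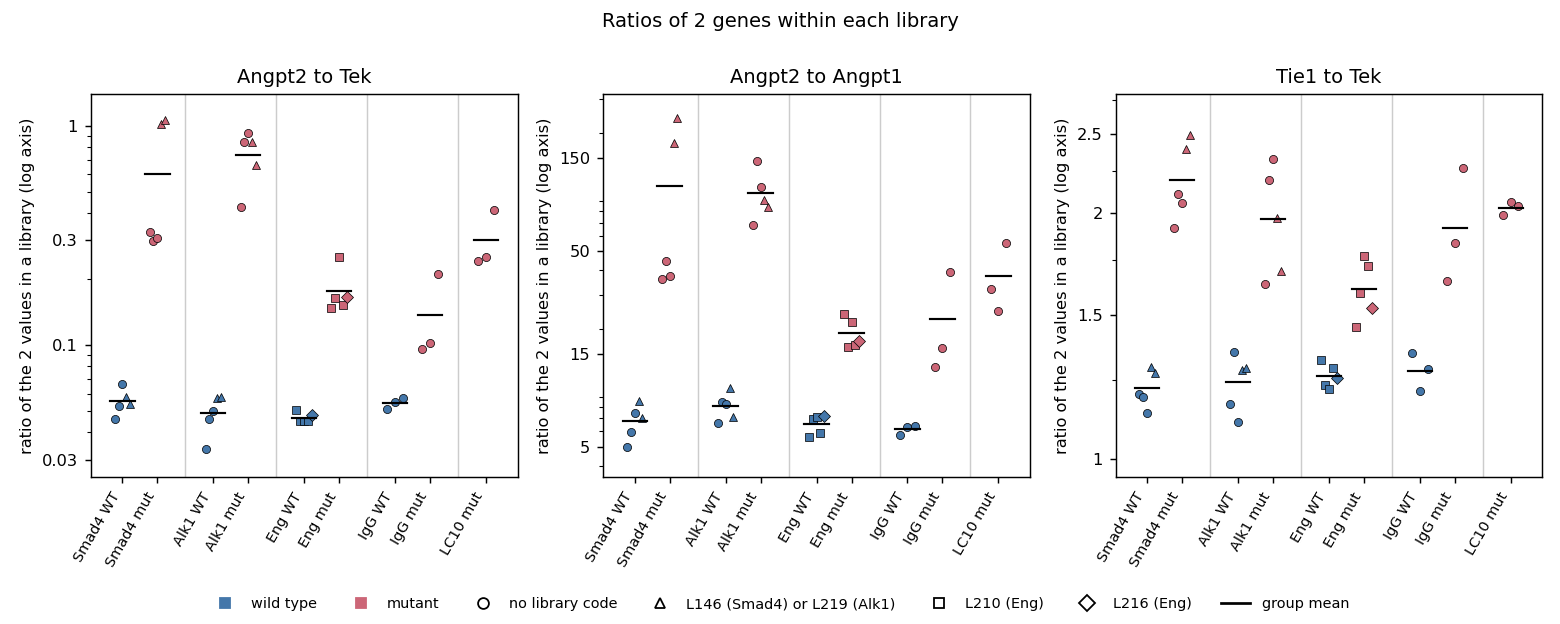
Ratio of Angpt2 to Tek, Angpt2 to Angpt1 and Tie1 to Tek within each of the 39 libraries (vertical log axes), with 1 point per library, a bar for the group mean and marker shape for the library code. In all 3 ratios every mutant lies above every wild type, and the Angpt2 to Tek ratio of the Eng mutants, 0.148 to 0.251, is below that of the Smad4 and Alk1 mutants.

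The genotype effects of the untreated cohorts were then compared with one another, gene by gene. Angpt2 rose more after loss of Alk1 than after loss of Eng, by 1.67 ± 0.38 on the log2 scale (adjusted p = 0.00358), and more after loss of Smad4 than of Eng, by 1.25 ± 0.38 (adjusted p = 0.0419). Without the 2 Smad4 mutants coded L146, an alternative added after the values had been seen, the second difference was 0.55 (adjusted p = 0.215). Between Smad4 and Alk1 the difference was -0.42 ± 0.38 (adjusted p = 0.504, 95% confidence interval -1.20 to 0.37), and without those 2 libraries it was -1.12 (adjusted p = 0.000931). Tek fell more after loss of Alk1 than after loss of Smad4 (by 0.28 ± 0.08, adjusted p = 0.0126) or of Eng (-0.33 ± 0.08, adjusted p = 0.00346). Between Smad4 and Eng the Tek effects were -0.06 ± 0.08 apart (adjusted p = 0.697, 95% confidence interval -0.21 to 0.10).

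Tie1 separated the Smad4 cohort from the others, its effect being 0.46 ± 0.11 above that of Alk1 (adjusted p = 0.00262) and 0.43 ± 0.11 above that of Eng (adjusted p = 0.00912). The latter was 0.23 (adjusted p = 0.103) after quantile normalization and 0.32 (adjusted p = 0.0753) without the 2 mutants coded L146. Angpt1 differed by -0.70 ± 0.23 between Smad4 and Eng, just short of the threshold (adjusted p = 0.0522). It was -0.45 (adjusted p = 0.303) without the 2 mutants coded L146, -0.44 (adjusted p = 0.162) after quantile normalization and -0.80 (adjusted p = 0.0428) with each library divided by its total. Ptprb and Foxo1 were called in none of the 3 differences, which ran from -0.08 to 0.13 and from -0.03 to 0.09. In all, 15.9% of 14701 genes were called between Smad4 and Alk1, 8.04% between Smad4 and Eng and 14.5% between Alk1 and Eng. Pups of the Alk1 model were 1 day younger and received less tamoxifen. They were dosed on day 4 and collected on day 6, against days 1 to 3 and day 7 in the other models. Genotype, age, dose and time since tamoxifen therefore cannot be told apart in differences with that cohort.

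The Smad4 effect was measured again under IgG. The Angpt2 effect there minus the untreated one was -1.73 ± 0.55 on the log2 scale (95% confidence interval -2.91 to -0.55, unadjusted). Its adjusted p was 0.695, and 0.00688% of 14535 genes, a single gene, were called. Without the 2 untreated mutants coded L146 that difference was -1.02 (adjusted p = 0.632). The Tek effect differed by 0.24 ± 0.09 (adjusted p = 0.731), and the other 4 genes by -0.07 to 0.08. None of the 6 was called, and IgG treatment and experiment cannot be told apart in this difference.

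Smad4 mutants given LC10 were compared with those given IgG without a test, because their tables were normalized separately and treatment and table cannot be told apart. As deposited, Angpt2 stood at 4207, 4221 and 7266 in the 3 LC10 mutants and at 2627, 2614 and 4609 in the IgG mutants. After scaling by the median of ratios the LC10 mutants held 5447, 5476 and 9367, a mean of 6763 ± 2255 against 3281 ± 1144 in IgG mutants and 1717 ± 87.8 in IgG wild types. The lowest LC10 mutant lay above the highest IgG mutant, at 4601 on this scale, but below the highest as deposited. The ratio of Angpt2 to Tek, free of the scaling, was 0.241, 0.251 and 0.414 under LC10 and 0.0960, 0.102 and 0.211 under IgG, without overlap.

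Tek was 22595, 21778 and 22628 under LC10 after scaling (17451, 16788 and 17553 as deposited), within the IgG mutant range of 21805 to 27350 except for the 1 value below it. Tie1 was 44877 to 46135 after scaling, against 45182 to 49445 in IgG mutants and 37720 to 42833 in IgG wild types. Angpt1 was 170 to 222, against 117 to 205 in IgG mutants and 271 to 282 in IgG wild types. All 3 LC10 mutants were below the IgG wild types in Angpt1 and Tek. Ptprb was 67496 to 83021 and Foxo1 4457 to 4945, which overlapped the IgG mutants (65147 to 73472 and 4728 to 5100). As deposited, all 3 LC10 values of Tek, Tie1, Ptprb and Foxo1 were below all IgG mutants. The median-of-ratios factors were 0.771 to 0.776 in the LC10 and 0.996 to 1.003 in the IgG libraries. A typical gene was thus also lower under LC10 as deposited, and the share of all genes without overlap was not computed. The summed pericyte markers were 19996 to 30869 as deposited in the LC10 mutants, against 40202 to 77382 in the IgG mutants. After scaling they were 25778 to 39968 against 40136 to 77349, so the highest LC10 and the lowest IgG library nearly met. Summed endothelial markers were 268120 to 277830 as deposited under LC10 and 344720 to 355800 in the IgG mutants, and 347810 to 358160 against 344160 to 355640 after scaling. The part of these markers in the levels was not tested.

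Further genes of the pathway were read from 4 lists. The shares over all genes to set beside their counts are those given above, 17.2% higher and 15.8% lower in the Smad4, 17.5% and 15.7% in the Alk1, 12.4% and 9.08% in the Eng and 13.2% and 10.8% in the IgG comparison. The all-gene medians were between -0.013 and 0.0024. Among 11 tested genes of ligands and receptor partners, 7 were called higher and 0 lower in the Smad4 cohort, 5 and 3 in the Alk1, 2 and 2 in the Eng and 3 and 1 in the IgG comparison, with medians of 0.21, 0.09, 0.08 and 0.15. Angpt4 did not pass the filter. Itgb1, an integrin subunit that angiopoietins can engage, was called higher in all 4, by 0.45, 0.32, 0.17 and 0.28 on the log2 scale. Itgb3 rose by 1.16 ± 0.26 after loss of Smad4 (adjusted p = 0.00634), 1.86 ± 0.13 after loss of Alk1 (adjusted p = 1.63e-06) and 0.71 ± 0.16 after loss of Eng (adjusted p = 0.00746). Its partner Itgav rose by 0.70 ± 0.13 after loss of Alk1 (adjusted p = 0.00140) and by 0.50 ± 0.13 after loss of Smad4 (adjusted p = 0.0133). Under IgG neither Itgb3 (0.22, adjusted p = 0.387) nor Itgav (-0.02, adjusted p = 0.906) was called. Itga5, which with Itgb1 forms a fibronectin receptor, rose by 0.84 ± 0.07 in the Smad4 (adjusted p = 7.10e-06) and 0.59 ± 0.05 in the IgG comparison (adjusted p = 0.000279). Its values were 0.09 for Alk1 and -0.07 for Eng. Mmp14, a membrane protease, rose by 0.49 ± 0.08 after loss of Smad4 (adjusted p = 0.000667) and 0.49 ± 0.10 after loss of Alk1 (adjusted p = 0.00221). Under IgG it rose by 0.38 ± 0.06 (adjusted p = 0.00362).

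On the lower side of this list, Adam17, a protease that sheds receptors, fell by 0.22 ± 0.06 in the Alk1 cohort (adjusted p = 0.0130), as did Kdr, the main VEGF receptor, by 0.38 ± 0.11 (adjusted p = 0.0143). Adam10, a related protease, and Plcg1, a phospholipase, each fell by 0.15 in the Eng cohort (adjusted p = 0.0437 and 0.0292), while Plcg1 rose by 0.21 in the Smad4 cohort (adjusted p = 0.00733). Svep1, which encodes a matrix protein that binds TIE1, fell by 0.95 ± 0.24 under IgG (adjusted p = 0.0189) and by 0.75 ± 0.25 in the Alk1 cohort (adjusted p = 0.0377), with -1.14 ± 0.49 in the Smad4 cohort (adjusted p = 0.0920).

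Of 24 genes of TIE2 signal transduction, 4 were called higher and 4 lower in the Smad4, 4 and 3 in the Alk1, 1 and 2 in the Eng and 3 and 4 in the IgG comparison, with medians of 0.03, 0.08, -0.06 and -0.01. Called either way were 8 of 24 in the Smad4, 7 in the Alk1, 3 in the Eng and 7 in the IgG comparison, beside 33%, 33.2%, 21.5% and 24% of all genes, so the list stood at or near the background, or below it in the Eng cohort. The adaptor gene Grb14 fell in all 4, from 1440 to 517 in the Smad4 cohort (-1.48 ± 0.08, adjusted p = 2.86e-07), and by 0.95 in the Alk1, 0.72 in the Eng and 0.88 in the IgG comparison, the last at an adjusted p of 0.0499. Shc1, another adaptor, rose in all 4, by 0.35, 0.28, 0.13 and 0.23. The kinase gene Mapk3 fell in the Alk1 cohort (-0.28 ± 0.07, adjusted p = 0.0114). Grb7 fell after loss of Smad4 (-0.95 ± 0.23, adjusted p = 0.0113), as did Pak1 (-0.88 ± 0.23, adjusted p = 0.0147). Under IgG Grb7 was not called (-0.21, adjusted p = 0.406). Pak1 (-0.93 ± 0.16, adjusted p = 0.00417) and Pik3r2 (-0.43 ± 0.11, adjusted p = 0.0224) fell under IgG. The PI3-kinase subunit gene Pik3r1 rose after loss of Alk1 (0.40 ± 0.07, adjusted p = 0.00123). Nos3, the endothelial nitric oxide synthase, fell in the Eng cohort (-0.17 ± 0.05, adjusted p = 0.0292) and was called higher in the Smad4 (0.25, adjusted p = 0.0154) and IgG comparisons (0.19, adjusted p = 0.0483).

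Of the FOXO family and FOXO-regulated genes, 3 were called higher and 7 lower of 23 in the Smad4, 8 and 1 of 22 in the Alk1, 1 and 10 of 22 in the Eng and 0 and 6 of 23 in the IgG comparison. Over all genes 17.2% were called higher and 15.8% lower in the Smad4, 17.5% and 15.7% in the Alk1, 12.4% and 9.08% in the Eng and 13.2% and 10.8% in the IgG comparison. The list medians were -0.01, 0.44, -0.16 and -0.06. The family member Foxo4 fell in the Alk1 (-0.44 ± 0.08, adjusted p = 0.00157), Smad4 (-0.37 ± 0.05, adjusted p = 0.000488) and Eng cohorts (-0.13 ± 0.04, adjusted p = 0.0364), and Foxo3 rose in the Eng cohort (0.34 ± 0.05, adjusted p = 0.000844). Txnip, an inhibitor of thioredoxin, fell in the Smad4 (-0.70 ± 0.07, adjusted p = 2.19e-05), Eng (-0.31 ± 0.04, adjusted p = 0.000127) and IgG comparisons (-0.74 ± 0.17, adjusted p = 0.0145), with 0.74 ± 0.30 in the Alk1 cohort (adjusted p = 0.0800). Pdk4, a kinase of pyruvate dehydrogenase, fell in the Smad4 (-1.002 ± 0.13, adjusted p = 0.000231) and Eng cohorts (-0.36 ± 0.08, adjusted p = 0.00529). Klf6, a zinc-finger transcription factor, rose in the Smad4 (0.60 ± 0.14, adjusted p = 0.00692) and Alk1 cohorts (1.23 ± 0.30, adjusted p = 0.00780). The catalase gene Cat rose in the Smad4 (0.13 ± 0.04, adjusted p = 0.0420) and fell in the Eng cohort (-0.23 ± 0.03, adjusted p = 0.000583). Under IgG, Foxo4 (-0.21), Pdk4 (-0.21), Klf6 (0.09) and Cat (0.08) were not called (adjusted p = 0.0813, 0.103, 0.724 and 0.607). Gadd45a, a growth-arrest gene, and Irs2, an adaptor of insulin receptors, rose after loss of Alk1 by 1.01 ± 0.18 (adjusted p = 0.00132) and 1.15 ± 0.22 (adjusted p = 0.00199), whereas Irs2 fell under IgG (-1.02 ± 0.26, adjusted p = 0.0194). The pro-apoptotic gene Bcl2l11 fell after loss of Eng (-0.33 ± 0.03, adjusted p = 4.87e-05) and rose after loss of Alk1 (0.81 ± 0.16, adjusted p = 0.00289). The ubiquitin ligase gene Fbxo32 (-0.53 ± 0.11, adjusted p = 0.00916) and Sesn1 (-0.27 ± 0.06, adjusted p = 0.0109) fell under IgG, and both also in the Smad4 (-0.49 and -0.23, adjusted p = 0.0249 and 0.0285) and Eng cohorts (-0.32 and -0.21, adjusted p = 0.0398 and 0.00339).

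**Figure D4:**
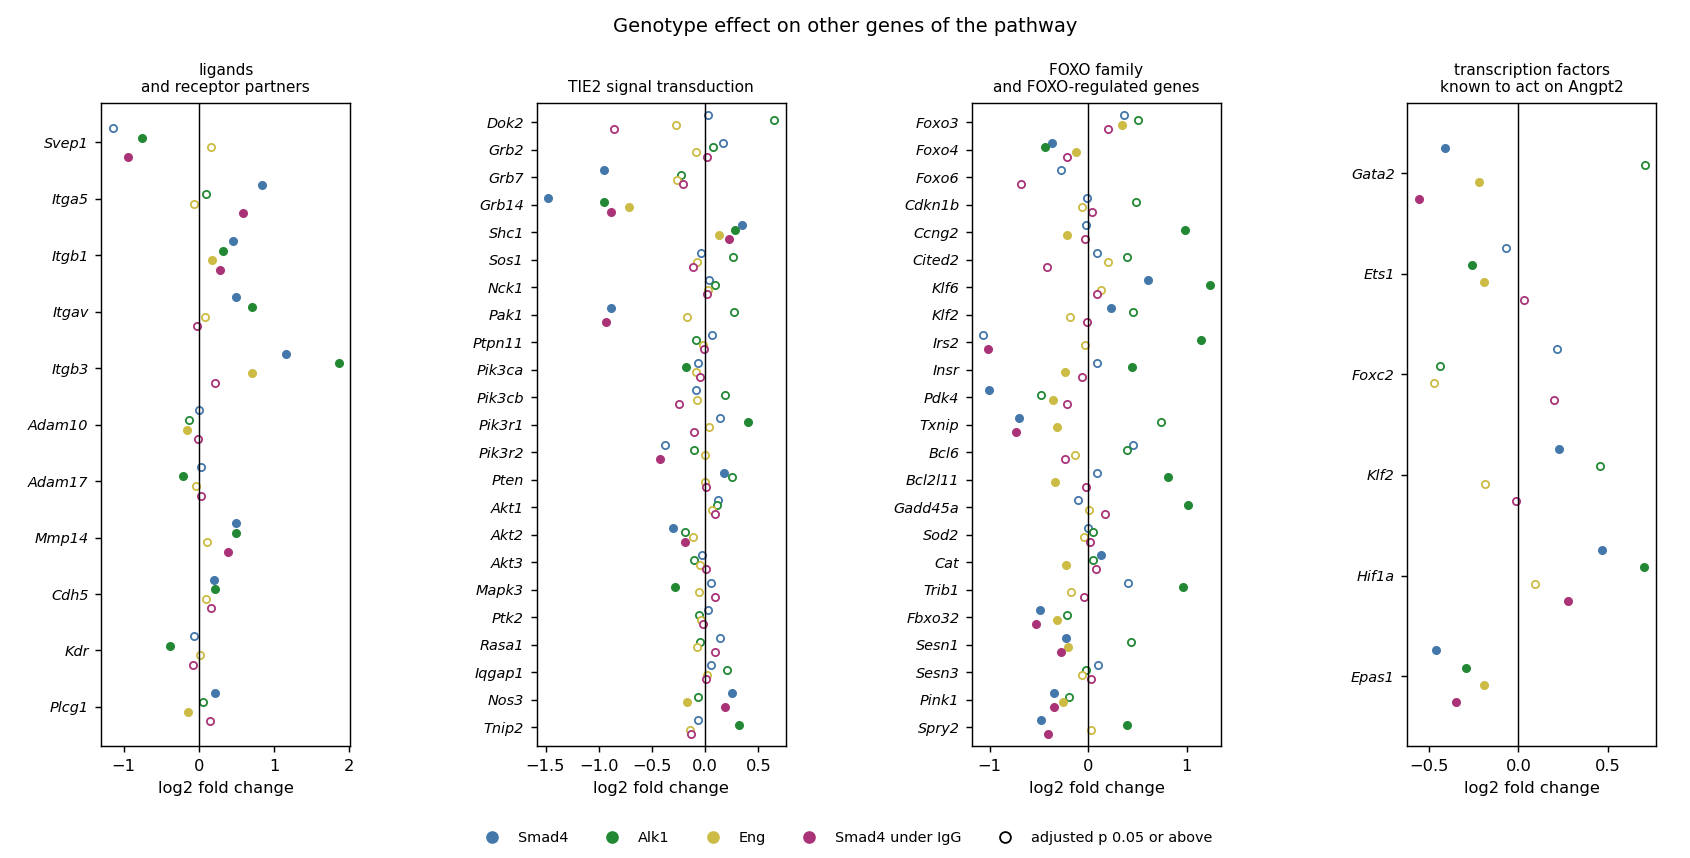
Log2 fold change of mutant over wild type (horizontal axes) for tested genes of the 4 pathway lists (vertical axes, 1 signal transduction gene not shown), with 1 point per comparison in its colour, filled where the adjusted p was under 0.05. Filled points of the FOXO list lie mostly above 0 in the Alk1 cohort, 8 of 9, and mostly below 0 in the Eng cohort, 10 of 11.

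Of 6 transcription factors known to act on Angpt2, 2 were called higher and 2 lower in the Smad4, 1 and 2 in the Alk1, 0 and 3 in the Eng and 1 and 2 in the IgG comparison. Either way these were 4, 3, 3 and 3 of 6, where 33%, 33.2%, 21.5% and 24% of all genes were called. The medians were 0.07, 0.10, -0.19 and 0.01. Hif1a, the hypoxia factor, rose in the Smad4 (0.47 ± 0.07, adjusted p = 0.000918), Alk1 (0.70 ± 0.09, adjusted p = 0.000129) and IgG comparisons (0.28 ± 0.07, adjusted p = 0.0214), with 0.095 ± 0.03 in the Eng cohort (adjusted p = 0.0595). Its relative Epas1, abundant in endothelium, fell in all 4, by 0.46, 0.29, 0.19 and 0.35. Gata2 fell in the Smad4 (-0.41 ± 0.14, adjusted p = 0.0392), Eng (-0.22 ± 0.06, adjusted p = 0.0236) and IgG comparisons (-0.56 ± 0.16, adjusted p = 0.0311), with 0.71 ± 0.27 in the Alk1 cohort (adjusted p = 0.0603). Ets1 fell in the Alk1 (-0.26 ± 0.07, adjusted p = 0.0157) and Eng cohorts (-0.19 ± 0.05, adjusted p = 0.0124). The flow-responsive factor Klf2 rose in the Smad4 cohort (0.23 ± 0.08, adjusted p = 0.0460) but was not called under IgG (-0.02, adjusted p = 0.931).

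Among 13468 other genes tested in all 4 comparisons, those whose 4 log2 fold changes lay nearest to Angpt2, by root mean square difference, were Pcsk6, Rnase1, Upp1, Adm and Lpin3. Pcsk6, a secreted protease, was nearest (0.279), with 2.77 for Smad4, 3.34 for Alk1, 1.31 for Eng and 1.32 under IgG, and was called in all 4. Rnase1, a ribonuclease secreted by endothelium, followed (0.379) with 2.61, 3.04, 1.10 and 1.59. The differences of Upp1, Adm and Lpin3 were 0.476, 0.532 and 0.561, and these were called in 3, 3 and 2 comparisons. Among the 5 nearest to Tek were Mfsd2a, Ptafr, Efr3b and Ccdc17, at 0.0540 to 0.0979. Mfsd2a, a lipid transporter of brain capillaries, had log2 fold changes of -0.52, -0.78, -0.49 and -0.32 beside the -0.58, -0.86, -0.53 and -0.34 of Tek. Mfsd2a and Efr3b were called in all 4, Ccdc17 in 1 and Ptafr in 0, so this likeness is one of estimates and holds over only 4 comparisons.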

How the data were processed

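The 39 libraries of 9 groups come from version 2 of the TruSeq RNA kit, per the labels' protocols. The submitters' processing notes name the build mm10. The aligner, the counting tool and how values were normalized were not given in the sources used here. The deposited values are a normalized signal per gene, although the labels call them raw counts. The most frequent low value of each library was taken as the step of a single read. In each library only 14.39 to 24.71% of values above 0 came within 0.05 of whole multiples of that step. A count test was therefore not used. Depth was inferred from that step and is rough, because few values followed it.

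Of 24972 genes, 26 were dropped for names that were repeated or read as dates, and 98.1% of symbols matched GENCODE M21, from which coordinates and exon lengths were taken. A further 3 columns match no described sample and were not used. In the untreated cohorts columns could be joined only to groups, and replicates are numbered as the columns stand. Values were taken as log2 of the value plus 2, which understates changes of low genes. Genes reaching 20 in at least 5 libraries (3 in the antibody experiment) entered limma (3.58.1, under R 4.3.3), run two-sided with its intensity trend and with Benjamini-Hochberg adjustment over all genes. Tables were normalized separately, so each cohort was fitted alone. In the IgG fit the LC10 mutants were a group of their own that added only to the spread. Differences between genotype effects came from a joint fit of within-table effects. The fit was also run on simulated data with independent noise and the same spread of a gene in both genotypes. Those data held no library codes or shifts in cell content, so that run gives no check of such features.

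The members, the 4 pathway lists and the 10 marker lists were chosen with earlier results of these data known. Named are the 6 members and the deleted genes. From each list and comparison up to 2 called genes per direction with the smallest adjusted p are named, with those called alike in all 4 comparisons. The 5 genes nearest to Angpt2 and to Tek are also named, and 2 genes that these rules name are not reported here. Mcph1 was named because it overlaps Angpt2. Alternatives covered the pseudocount, filter, scaling, trend, marker levels, library codes, joint fits and leaving out libraries. Of these, the fits of coded libraries alone, of L210 libraries alone, the test of coded against uncoded effects and the differences without 2 Smad4 mutants were added after seeing the data.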

Additional observations from a re-analysis of the deposited data

Results flagged for a closer look

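Of 36 groups of 5 libraries, 4 held a library far from the others of its group, where chance gives about 1 in 20. Angpt1 stood at 339 in Eng wild type 1, with the nearest of the others at 286. Angpt2 stood at 6549 in Eng mutant 3, with the nearest at 4650. Foxo1 stood at 5684 in Smad4 wild type 2, with the nearest at 5206, and at 5879 in Smad4 mutant 3, with the nearest at 5087. Leaving out these libraries one at a time moved no call of these genes.

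Genotype effects differed between cohorts in 6 tests. The Tek effect was 0.28 higher (a smaller fall) in the Smad4 than in the Alk1 cohort, and -0.33 in Alk1 minus Eng (a larger fall). The Tie1 effect was higher in the Smad4 cohort by 0.46 against Alk1 and by 0.43 against Eng. The Angpt2 effect was higher by 1.25 in Smad4 and by 1.67 in Alk1, each against Eng. The first of the Angpt2 differences was 0.55 (adjusted p = 0.215 by limma) without the 2 Smad4 mutants coded L146.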

How the results depend on the processing

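Angpt2 and Tek kept direction and call in all 23 alternatives in the Smad4, 23 in the Alk1 and 22 in the Eng cohort, and Foxo1 was called in none. Numbers below are log2 fold changes or differences unless called genes are named. With the pericyte level in the fit Angpt1 was not called in the Smad4 (-0.50), Alk1 (-0.37) and IgG (-0.41) comparisons, nor were Angpt2 (0.18), Tek (-0.20) and Tie1 (0.19) under IgG, whereas Ptprb was called in the Alk1 cohort (-0.42). Called genes then numbered 1612, 2939 and 387 in the Smad4, Alk1 and IgG comparisons, against 4620, 4530 and 3371. With the glial and neuronal level Angpt1 (-0.48 Smad4, -0.71 IgG), Angpt2 (0.95 IgG) and Tie1 (0.19 IgG) were not called, Ptprb was called in the Alk1 cohort (-0.34), Foxo1 in the Smad4 cohort became 0.012, and called genes numbered 2295 (Smad4) and 2005 (IgG). Dividing each library by its total made calls of Ptprb (-0.24 Smad4, -0.37 Alk1), Tie1 (-0.28 Alk1) and the Angpt1 difference of Smad4 and Eng (-0.80). It reversed that difference for Ptprb (-0.037) and Foxo1 (-0.030), and that of IgG and untreated Smad4 for Tie1 (0.022). Quantile normalization made calls of Tie1 (-0.25) and Ptprb (-0.32) in the Alk1 cohort and ended those of Tie1 (-0.058) and Ptprb (-0.064) in the Eng cohort, of Tie1 under IgG (0.16) and of the Tie1 difference of Smad4 and Eng (0.23). It reversed differences of Ptprb (-0.13) and Foxo1 (-0.040) for Smad4 and Eng, Foxo1 (-0.030) for Alk1 and Eng, and Ptprb (0.078) for IgG and untreated Smad4. No scaling moved the median of all genes by over 0.1.

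In the joint fit Tie1 (0.26) in the Smad4 and Tie1 (-0.21) and Ptprb (-0.29) in the Alk1 cohort were called, and Tie1 (-0.18) and Ptprb (-0.22) in the Eng cohort were not, with 1602 genes called there against 3082. Tie1 under IgG (0.23) was not called from the IgG libraries alone, nor Angpt2 under IgG (0.88) without the trend. Libraries without a code gave 2461 called genes in the Smad4 and 2005 in the Alk1 cohort, where Angpt1 was not called (-0.58, and -0.49 among coded ones). Coded libraries made a call of Tie1 in the Smad4 (0.29) and Alk1 (-0.31) cohorts, as did the code as a term (0.26 and -0.21, with Ptprb -0.29 in the Alk1 cohort). All Eng libraries are coded, and L210 alone left Tie1 uncalled (-0.15). Without the 2 Smad4 mutants coded L146 the Angpt2 difference was called between Smad4 and Alk1 (-1.12) but not between Smad4 and Eng (0.55), nor was Tie1 in the latter (0.32). Angpt1 (-0.17) and Tie1 (0.085) reversed between IgG and untreated Smad4. As deposited, LC10 over IgG mutants was -0.14 for Angpt1, -0.52 for Tek, -0.43 for Tie1, -0.23 for Ptprb and -0.46 for Foxo1. The cause of these changes was not tested.

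Leaving out 1 library gave 0.20 to 0.30 for Tie1 in the Smad4 cohort, -0.62 to -0.44 for Angpt1, -0.25 to -0.16 for Tie1, -0.38 to -0.23 for Ptprb and -0.068 to 0.060 for Foxo1 in the Alk1 cohort, and 0.61 to 1.02 for Angpt2 and 0.18 to 0.27 for Tie1 under IgG. Called genes under IgG then ran from 1777 to 3795, with 2167 without wild type 2, 1777 without mutant 2 and 2171 without mutant 3. With the replicate number as a block the Angpt2 value under IgG stayed at 0.88 (adjusted p = 0.00400 by limma), no call of the 6 genes changed and 3862 genes were called. Same-numbered IgG libraries did not deviate together (correlations of 0.0426, 0.0155 and -0.0666 across genes), so the numbers do not pair them. No paired analysis was possible in the untreated cohorts because their columns carry no replicate numbers of the labels. Depth limits Angpt1 most, the member with the lowest values.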
